A study of Homo sapiens with 6 samples.

Results

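The 71 genes described here encode proteins of the mitochondrial ribosome. They were chosen by name, as rows of the deposited table whose Ensembl identifier maps to a symbol starting with MRPL or MRPS and followed by a number, and they are 71 of the table's 16715 distinct identifiers. By symbol, 45 belong to the large subunit (MRPL) and 26 to the small subunit (MRPS). The study's title links genome-wide DNA methylation to alternative transcripts. It measured RNA in HCT116, an established line of human colorectal carcinoma used at passages 7 to 10, with 3 libraries of 5aza-treated cells and 3 of control cells. The treated cells had 5 µM 5aza for 48 hours and then fresh medium for another 48 hours; no agent is named for the control cells. The compound is coded DAC in the table's columns and 5aza in the sample titles, and its full name is not stated. Nothing says that the 3 libraries of a group came from separate cultures, so p-values measure only the spread between these samples, which may be technical.

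The mitochondrial ribosome sits in the matrix, largely at the inner membrane, and translates the few proteins that mitochondrial DNA encodes, all of them subunits of the respiratory chain and ATP synthase. Its RNAs are transcribed from mitochondrial DNA, whereas all of its proteins are encoded in the nucleus, translated in the cytosol and imported. Compared with its bacterial ancestor it has less RNA and more protein, including many proteins with no bacterial counterpart. 5aza belongs to the azanucleosides, analogues of cytidine that are built into nucleic acids and bind DNA methyltransferases covalently; dividing cells then lose methylation.

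All 71 genes are protein coding, and all passed the filter on low values of 0.5 FPKM (fragments scaled to transcript length and library size) in at least 3 of the 6 libraries. They lie on 21 autosomes, with at most 8 on 1 chromosome. The 71 genes are not all of the MRPL and MRPS genes, so sums and ratios of subunits cover only these. MRPL12, for example, was not analysed here, and neither were genes of the mitochondrial genome. In control libraries the means of the 71 genes ran between 10.2 and 162 FPKM, with a median of 63.8 FPKM. Summed FPKM per library lay between 577735 and 592051 in 5aza libraries and between 601916 and 628399 in control libraries, an average change of -5.40%. Read totals were not among the sources used here, so depth is unknown. The epithelial markers EPCAM, KRT8, KRT18, KRT19, CDH1, CLDN4, CLDN7 and CDX2 were present, and VIL1, LGALS4 and CDX1, markers of differentiated gut epithelium, were under 0.5 FPKM in every library. KRT8, KRT18, KRT19 and CDH1 rose after 5aza, and EPCAM fell, a call lost without 5aza replicate 2 or 3 or control replicate 1 or 2 (limma, adjusted p between 0.0562 and 0.0716). The EPCAM call was also lost with every library rescaled to the same sum and with quantile normalization (limma, adjusted p = 0.344 and 0.830). Of 17 markers of blood, vessel, stromal and other cells, 3 passed the filter, and their list summed to between 14.2 and 16.0 FPKM in 5aza libraries and between 9.20 and 9.37 FPKM in control libraries. COL1A1 and ACTA2 rose, and the leukocyte marker PTPRC lay between 0 and 0.108 FPKM. The part of these markers in the results below was not tested.

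Some promoters of these genes are shown first, because the factors best known for driving nuclear genes of mitochondria, NRF1 and the ETS factor GABP, and the factor YY1, bind short motifs close to the start site. RefSeq windows on GRCh38.p14, from 250 bases before to 50 bases after the annotated start, were found for 63 of the 71 genes. They were searched on both strands for 3 motifs: CCGGAAG for ETS factors, AAGATGG for YY1, and TGCGCA, which is one side of the NRF1 site. AAGATGG contains ATG and so also occurs at start codons; none of the 3 motifs contains another. The pieces below come from 5 of the 7 genes that fell under every processing setting and from 2 genes that were not called, MRPS30 and MRPL46. Each is written 5′ to 3′ on the gene's own strand, and capitals mark a single motif in each piece, where CTTCCGG is the ETS motif read on the other strand. The pieces of MRPS34 and MRPS22 each hold a further ETS motif that is left in small letters, and the MRPS34 pieces overlap each other.
MRPS34: gacaccggcctCTTCCGGtgacttccggcc
MRPS34: tcttccggtgaCTTCCGGccggaccgctga
MRPS22: tctataagggcCCGGAAGacttccggccct
MRPL51: cggcaggcggaCCGGAAGcactgaggcggg
MRPL51: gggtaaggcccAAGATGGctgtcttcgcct
MRPL11: acctctggcccAAGATGGtggcgcccagag
MRPS18B: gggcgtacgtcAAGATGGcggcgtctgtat
MRPS18B: tttcctgaagcaTGCGCAgttgcctttccg
MRPS30: aatcgcgggcaAAGATGGcggcggccaggt
MRPL46: tgggagaacgaAAGATGGcggcgcccgtaa
The MRPS34 pieces lie at chr16:1773145-1773174 and chr16:1773135-1773164 on the minus strand, with motifs that begin 29 and 19 bases before the start. The MRPS22 piece lies at chr3:139343896-139343925 on the plus strand. The ETS piece of MRPL51 lies at chr12:6493348-6493377 and its YY1 piece at chr12:6493223-6493252, both on the minus strand. The MRPL11 piece lies at chr11:66438806-66438835 on the minus strand. The YY1 piece of MRPS18B lies at chr6:30617852-30617881 and its NRF1 piece at chr6:30617808-30617837, both on the plus strand. The pieces of MRPS30, at chr5:44808949-44808978 on the plus strand, and MRPL46, at chr15:88467362-88467391 on the minus strand, show the same YY1 letters in genes that did not pass the test.

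After 5aza, the mitochondrial ribosomal protein genes were slightly lower as a group. Of 71 genes tested, 28 fell (39.4%), 0 rose and 43 did not pass the test (limma on log2(FPKM + 0.1), Benjamini-Hochberg adjusted p under 0.05 over all 12360 genes tested). Over all genes tested, 23.7% were called, 13.1% as falls and 10.6% as rises. The median log2 fold change of the 71 genes was -0.11, a change of -7.65%, with a range of -0.44 to 0.06, and over all genes tested it was -0.01. The log2 fold change lay below 0 in 64 of the 71 genes (90.1%), and in 52.0% of all genes tested. In 37 of the 71 genes (52.1%) every 5aza library was below every control library, which held for 22.6% of all genes tested. In 0 of the 71 genes was every 5aza library above every control library, which held for 19.6% of all genes tested. In the other 34 genes the groups overlapped. These comparisons of libraries used the values as deposited. Summed FPKM was lower in every 5aza library than in every control library. The fall in single genes was small: among the 28 that passed, the median was -0.21, or -13.7%. In libraries from bulk cultures, fewer cells of a type and less RNA per cell cannot be told apart.

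**Figure D1:**
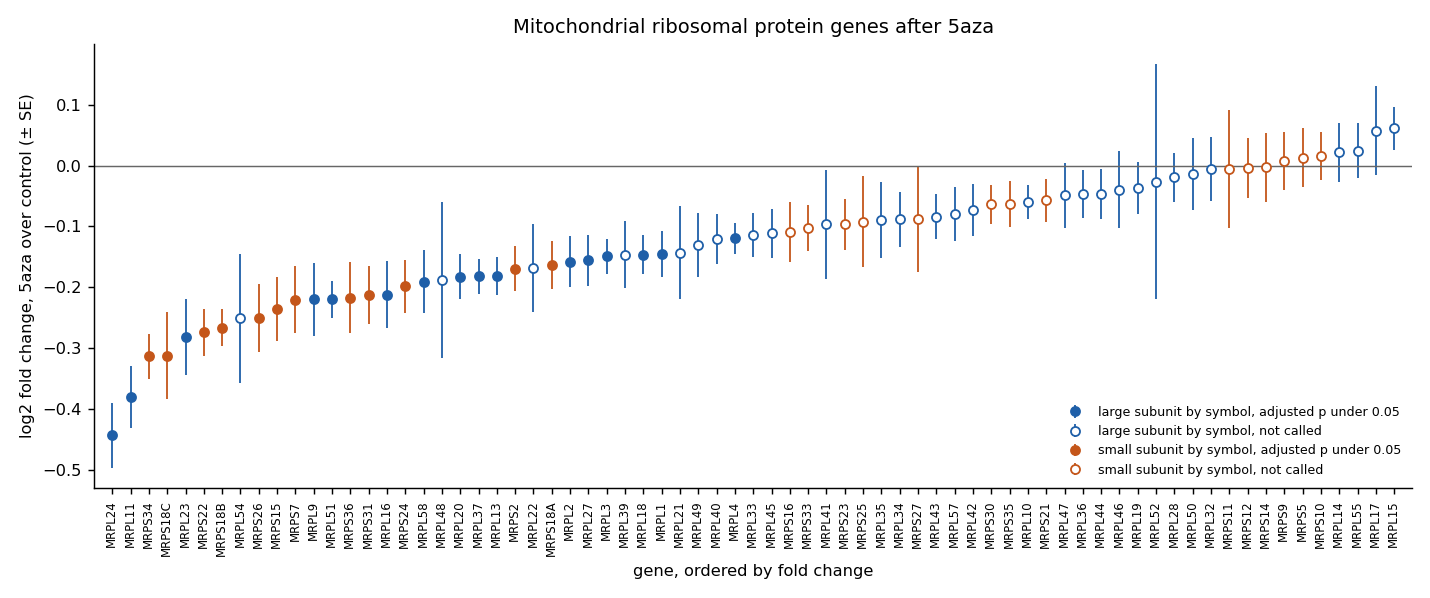
Log2 fold change (5aza over control) of each of the 71 genes with its SE, ordered from the lowest to the highest; blue marks large and orange small subunit symbols, and filled points have an adjusted p under 0.05. The 28 filled points lie between -0.44 and -0.12, large and small subunit genes are mixed along the order, and the 7 genes above 0 are all open points.

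The number of falls depends on how the values are scaled and on single libraries. It was 14 with every library rescaled to the same sum, 17 with quantile normalization, 9 with the expression trend (of fold change against mean level) removed and 11 without the variance trend, and it was 17, 13, 15 and 17 without 5aza replicate 2, 5aza replicate 3, control replicate 1 and control replicate 2. The median of the 71 genes stayed below 0 under all 18 settings, between -0.14 and -0.04. It also stayed below the median of all genes tested, with a difference between -0.14 and -0.04 on the log2 scale. Rescaling moved the median of all genes to 0.07 and the median of the 71 genes to -0.04, a shift common to all genes, which leaves their difference as it was. The difference was -0.04 with quantile normalization and -0.06 with the expression trend removed, against -0.11 in the values reported here. Among all genes tested, rises were 44.7% of calls, against 74.2% after rescaling, 59.3% with the expression trend removed and 54.9% with no filter on low values.

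**Figure D2:**
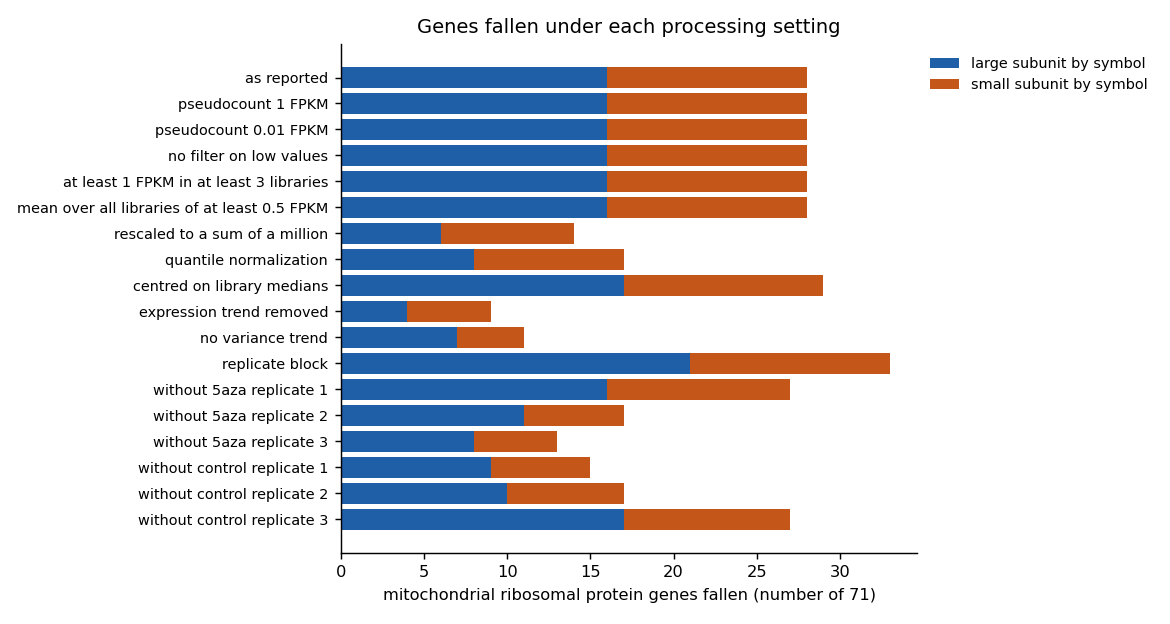
Number of the 71 genes that fell under each processing setting, as stacked bars of large (blue) and small (orange) subunit symbols. The bars reach between 9 genes, with the expression trend removed, and 33 genes, with the replicate number as a block, against 28 as reported.

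The summed FPKM of the 71 genes was 4654, 4556 and 4458 in 5aza libraries, against 5063, 5110 and 4879 in control libraries. The groups did not overlap, and replicate 3 had the lowest sum in both. The mean sum was 4556 ± 98.2 FPKM after 5aza and 5017 ± 122 FPKM in control libraries (SD, n = 3 each), a change of -9.20%. As a share of each library's summed FPKM, the genes took between 0.772% and 0.786% in 5aza libraries and between 0.811% and 0.813% in control libraries, so the groups were apart on this scale too. Within a group, the median coefficient of variation of a gene was 3.84% in 5aza libraries and 4.30% in control libraries.

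Both subunits were lower. Of 45 large subunit symbols, 16 fell (35.6%), 0 rose and 29 did not pass, with a median log2 fold change of -0.12. Of 26 small subunit symbols, 12 fell (46.2%), 0 rose and 14 did not pass, with a median of -0.11. The large subunit genes summed to 3017 ± 63.7 FPKM after 5aza and 3301 ± 85.0 FPKM in control libraries, and the small subunit genes to 1539 ± 35.7 FPKM after 5aza and 1716 ± 39.3 FPKM in control libraries (SD, n = 3 each). These are changes of -8.61% and -10.3%. The ratio of the large to the small subunit sum was 1.97, 1.94 and 1.97 in 5aza libraries, against 1.91, 1.95 and 1.92 in control libraries. The groups overlap in this ratio, which averaged 1.96 ± 0.0153 after 5aza and 1.92 ± 0.0203 in control libraries.

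Symbols do not match the structure in every case. MRPS18A and MRPS30 sit in the large subunit, and MRPS36, also called KGD4, is now counted as a part of the 2-oxoglutarate dehydrogenase complex. Placed by structure, 17 of 47 large subunit genes (36.2%) and 10 of 23 small subunit genes (43.5%) fell, where 13.1% of all genes tested fell. A second division, by whether a protein has a bacterial counterpart, was added after the values were seen. Of 41 genes with a bacterial counterpart 20 fell (48.8%), with a median of -0.14, and of 29 genes of proteins found in mitochondrial ribosomes but not in bacterial ones 7 fell (24.1%), with a median of -0.10. Within the large subunit these were 14 of 27 and 3 of 20 genes, and within the small subunit 6 of 14 and 4 of 9 genes. The medians were -0.15 and -0.09 in the large subunit. In the small subunit they were -0.08 and -0.10, in the reverse order. The log2 fold change lay below 0 in 35 of 41 genes with a bacterial counterpart and in 28 of 29 of the others. Genes with a bacterial counterpart had the higher median level in control libraries, at 70.8 FPKM, against 58.7 FPKM for the others. The part of abundance in these differences was not tested.

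MRPL24 (ENSG00000143314, chromosome 1, 156737303 to 156741590 in GENCODE release 29 on GRCh38) had the largest fall. It encodes the counterpart of bacterial L24, which binds ribosomal RNA early in assembly and lies near the mouth of the exit tunnel. It had 76.2, 77.6 and 71.3 FPKM in 5aza libraries, against 108, 103 and 95.3 FPKM in control libraries. The highest 5aza value lay well under the lowest control value. The log2 fold change was -0.44 (SE 0.054, adjusted p = 0.00147), and the call held under all 18 settings.

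MRPL11 (ENSG00000174547, chromosome 11, 66435075 to 66466738), of the stalk base where translation factors dock, had 52.0, 47.9 and 49.0 FPKM in 5aza libraries, against 63.4, 68.7 and 61.7 FPKM in control libraries. The groups were apart by more than the spread within either of them, with a log2 fold change of -0.38 (SE 0.050, adjusted p = 0.00214). MRPL23 (ENSG00000214026, chromosome 11, 1947278 to 1984522), a protein at the rim of the exit tunnel, had 99.9, 97.1 and 88.5 FPKM in 5aza libraries, against 115, 124 and 108 FPKM in control libraries. The groups did not overlap (log2 fold change -0.28, SE 0.062, adjusted p = 0.0165). The MRPL23 call was lost with the expression trend removed and without the variance trend (limma, adjusted p = 0.0642 and 0.0520). Its exons overlap those of the antisense gene MRPL23-AS1. The sources used here do not say whether counting used strand, so the reads of the 2 genes cannot be told apart, and the same holds for MRPL11 and PELI3.

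In the small subunit, MRPS34 (ENSG00000074071, chromosome 16, 1771890 to 1773155) was at once the most abundant of the 71 genes and one of the most lowered. It encodes a protein with no bacterial counterpart that the small subunit needs for its stability. It had 133, 133 and 126 FPKM in 5aza libraries, against 162, 168 and 157 FPKM in control libraries, and the groups were far apart (log2 fold change -0.31, SE 0.037, adjusted p = 0.00137). MRPS22 (ENSG00000175110, chromosome 3, 139005806 to 139357223), also without a bacterial counterpart, had 67.0, 64.1 and 61.8 FPKM in 5aza libraries, against 78.1, 79.1 and 76.0 FPKM in control libraries. It fell by 0.27 on the log2 scale (SE 0.038, adjusted p = 0.00266), with no overlap between groups. MRPS26, another protein found in mitochondrial but not in bacterial ribosomes, had 65.4, 67.9 and 64.0 FPKM in 5aza libraries, against 83.0, 80.3 and 71.8 FPKM in control libraries. Control replicate 3 was the lowest of its group and still above every 5aza library (log2 fold change -0.25, SE 0.056, adjusted p = 0.0168). The MRPS26 call was lost without 5aza replicate 3 (adjusted p = 0.0598) or control replicate 2 (adjusted p = 0.0574). It was also lost with the expression trend removed and without the variance trend (limma, adjusted p = 0.0623 and 0.0520).

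MRPS15 and MRPS7, counterparts of bacterial proteins that bind the small subunit RNA directly, fell by less. MRPS15 had 63.9, 59.9 and 56.6 FPKM in 5aza libraries, against 73.5, 71.5 and 67.4 FPKM in control libraries (log2 fold change -0.24, SE 0.053, adjusted p = 0.0169). MRPS7 had 78.6, 78.0 and 73.1 FPKM in 5aza libraries, against 89.1, 95.6 and 83.1 FPKM in control libraries (log2 fold change -0.22, SE 0.055, adjusted p = 0.0249). In neither gene did the groups overlap, and both were lowest in replicate 3 of each group. Both calls were lost without 5aza replicate 2, 5aza replicate 3, control replicate 1 or control replicate 2, with adjusted p between 0.0503 and 0.0813. Both were also lost with the expression trend removed and without the variance trend (limma, adjusted p between 0.0520 and 0.109).

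MRPL9 and MRPL51 complete the 12 largest falls. MRPL9, counterpart of a bacterial protein of the large subunit surface, had 41.8, 40.6 and 36.6 FPKM in 5aza libraries, against 47.7, 47.5 and 43.4 FPKM in control libraries, with no overlap (log2 fold change -0.22, SE 0.060, adjusted p = 0.0342). MRPL51, a large subunit protein with no bacterial counterpart, had 110, 115 and 112 FPKM in 5aza libraries, against 130, 133 and 128 FPKM in control libraries. Its libraries agreed closely within each group (log2 fold change -0.22, SE 0.030, adjusted p = 0.00264), and its call held under all 18 settings. The MRPL9 call was lost without 5aza replicate 2 (adjusted p = 0.0666), 5aza replicate 3 (0.0839), control replicate 1 (0.101) or control replicate 2 (0.102). It was also lost with rescaling, the expression trend removed and no variance trend (limma, adjusted p between 0.0686 and 0.0939).

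**Figure D3:**
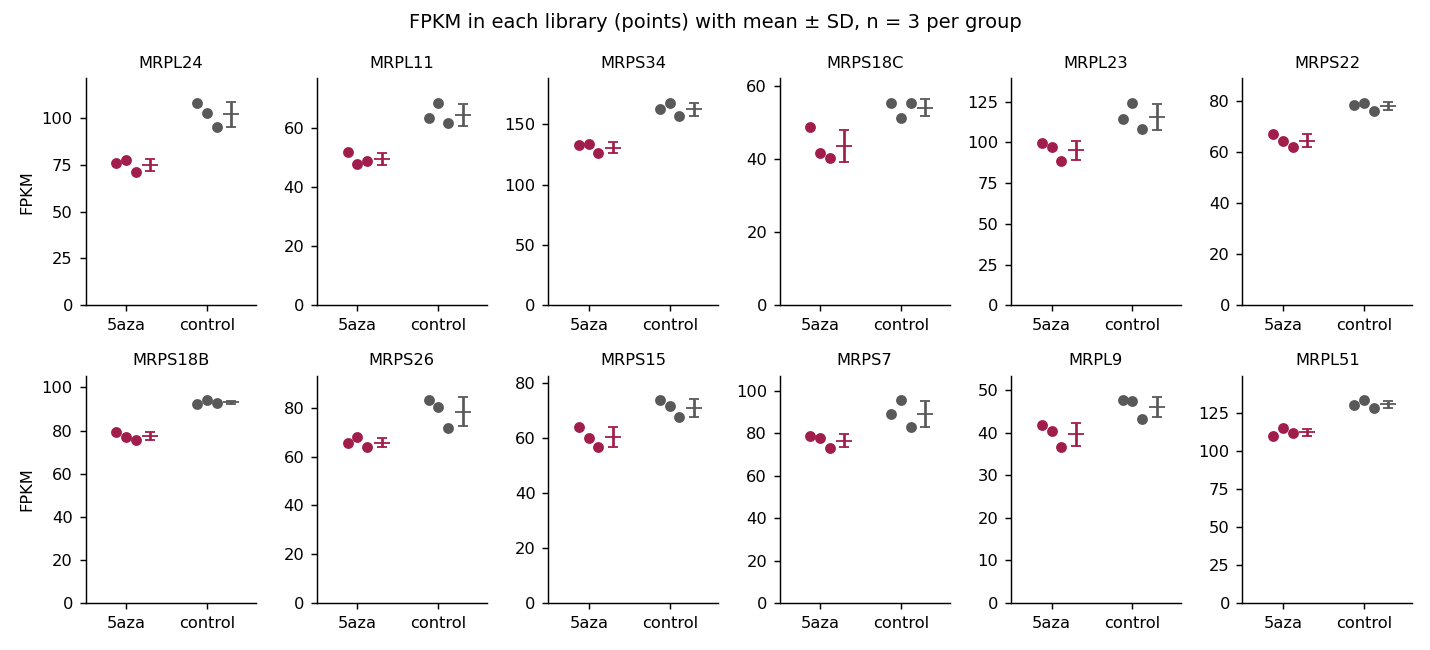
FPKM (linear axis from 0) of the 12 genes with the largest falls in each 5aza (red) and control (grey) library, with mean ± SD of 3 libraries beside the points. In all 12 genes every 5aza point lies below every control point, and MRPL24 has the largest fall relative to its level, with means of 75.0 ± 3.30 FPKM after 5aza and 102 ± 6.53 FPKM in control libraries.

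The 3 genes descended from a single bacterial S18 gene all fell. Their proteins have parted ways: MRPS18B and MRPS18C occupy different places in the small subunit and MRPS18A lies in the large subunit. MRPS18C had 48.7, 41.8 and 40.4 FPKM in 5aza libraries, against 55.4, 51.3 and 55.5 FPKM in control libraries (log2 fold change -0.31, SE 0.071, adjusted p = 0.0182). MRPS18B had 79.4, 77.0 and 75.6 FPKM in 5aza libraries, against 92.4, 94.0 and 92.7 FPKM in control libraries (log2 fold change -0.27, SE 0.030, adjusted p = 0.00114). MRPS18A had 48.7, 51.7 and 47.4 FPKM in 5aza libraries, against 55.7, 55.1 and 54.7 FPKM in control libraries (log2 fold change -0.16, SE 0.039, adjusted p = 0.0220). In none of the 3 genes did the groups overlap. The call of MRPS18B held under all 18 settings. That of MRPS18C was lost without 5aza replicate 2 (adjusted p = 0.0627), 5aza replicate 3 (0.0579) or control replicate 1 (0.0574), and without the variance trend (limma, adjusted p = 0.0528). The MRPS18A call was lost without 5aza replicate 1 (0.0648), 5aza replicate 3 (0.0671), control replicate 1 (0.0692) or control replicate 2 (0.0619). It was also lost with rescaling, quantile normalization, the expression trend removed and no variance trend (limma, adjusted p between 0.0606 and 0.153).

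Beside MRPS34, the most abundant genes were MRPL20 and MRPS24. MRPL20, counterpart of a bacterial protein that is needed early in large subunit assembly, had 136, 136 and 137 FPKM in 5aza libraries, against 157, 161 and 147 FPKM in control libraries. The 5aza libraries were almost identical and all below control (log2 fold change -0.18, SE 0.037, adjusted p = 0.0116). MRPS24 had 136, 131 and 123 FPKM in 5aza libraries, against 153, 149 and 144 FPKM in control libraries (log2 fold change -0.20, SE 0.044, adjusted p = 0.0166), also with no overlap. The readthrough gene URGCP-MRPS24 shares its exons, so its reads may have been split. Without control replicate 1 or control replicate 2 the MRPS24 call was lost (adjusted p = 0.0566 and 0.0501), and so it was without the variance trend (limma, adjusted p = 0.0552). With the expression trend removed, MRPL20 and MRPS24 were both lost (limma, adjusted p = 0.139 for each).

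The other falls were of genes of both subunits. MRPL58, a peptidyl-tRNA hydrolase built into the ribosome that releases stalled chains, had 54.1, 47.9 and 52.6 FPKM in 5aza libraries, against 56.5, 60.5 and 59.3 FPKM in control libraries (log2 fold change -0.19, SE 0.052, adjusted p = 0.0344). Its groups did not overlap, but the call was lost without 5aza replicate 2, 5aza replicate 3, control replicate 2 or control replicate 3 (adjusted p between 0.0671 and 0.105) and with the replicate block (adjusted p = 0.0594). It was also lost with rescaling, quantile normalization, the expression trend removed and no variance trend (limma, adjusted p between 0.0825 and 0.161). The remaining falls, named after their values were seen, were of MRPS36, MRPS31, MRPL16, MRPL37, MRPL13, MRPS2, MRPL2, MRPL27, MRPL3, MRPL18, MRPL1 and MRPL4, with log2 fold changes between -0.22 and -0.12. MRPL2, MRPL3, MRPL16 and MRPL27 are counterparts of bacterial proteins at or near the peptidyl transferase centre, where peptide bonds form, and MRPL4 is the counterpart of one that lines the exit tunnel. Of these, MRPL3 held without any 1 library, whereas MRPL2 and MRPL27 were each lost without any of 5 single libraries (adjusted p between 0.0595 and 0.0999), MRPL16 without any of 4 (between 0.0577 and 0.0889) and MRPL4 without 5aza replicate 3 or control replicate 1 (0.0550 and 0.0510). All these calls, that of MRPL3 included, were lost with rescaling, with quantile normalization and with the expression trend removed (limma, adjusted p between 0.0574 and 0.461). MRPL37, without a bacterial counterpart, was among the steadiest, with 88.6, 88.4 and 89.5 FPKM in 5aza libraries, against 102, 102 and 98.6 FPKM in control libraries. It fell by 0.18 on the log2 scale (SE 0.028, adjusted p = 0.00424). The call held under all 18 settings, with a log2 fold change of -0.10 and an adjusted p of 0.0449 with the expression trend removed. MRPL4 had the smallest fall that passed, with 101, 102 and 100 FPKM in 5aza libraries, against 110 FPKM in each control library. Of the 28 calls, 11 held without any 1 of the 6 libraries, and 7 held under all 18 settings: MRPL11, MRPL24, MRPL37, MRPL51, MRPS18B, MRPS22 and MRPS34.

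The 43 genes that did not pass had log2 fold changes between -0.25 and 0.06, and 36 of them lay below 0. The least abundant genes were among them. MRPS14, of the small subunit head, had 10.1, 9.99 and 10.3 FPKM in 5aza libraries, against 10.4, 9.58 and 10.6 FPKM in control libraries, with complete overlap (log2 fold change -0.0026, adjusted p = 0.979). MRPL50 had 13.8, 12.6 and 13.6 FPKM in 5aza libraries, against 14.2, 12.8 and 13.4 FPKM in control libraries (log2 fold change -0.01, adjusted p = 0.886). MRPS25 had 12.8, 12.7 and 13.1 FPKM in 5aza libraries, against 14.7, 12.1 and 14.4 FPKM in control libraries (log2 fold change -0.09, adjusted p = 0.417). In all 3 genes the groups overlapped, and the difference was within the spread of the libraries.

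MRPS30, a large subunit protein in spite of its symbol, had 56.1, 54.1 and 53.6 FPKM in 5aza libraries, against 57.3, 57.1 and 56.7 FPKM in control libraries. Every 5aza library was below every control library, but the difference did not pass (log2 fold change -0.06, SE 0.032, adjusted p = 0.185), and its sign turned under 3 other scalings. MRPL41 had 90.7, 86.1 and 77.5 FPKM in 5aza libraries, against 96.7, 96.9 and 78.9 FPKM in control libraries. Replicate 3 was the lowest library of both groups, so the groups overlapped (log2 fold change -0.10, SE 0.089, adjusted p = 0.476). MRPL54 and MRPL48, chosen after their values were seen, had log2 fold changes of -0.25 and -0.19 that were as large as many called falls but had SEs of 0.11 and 0.13 (adjusted p = 0.129 and 0.329). Both were called with the replicate number as a block (adjusted p = 0.0246 for MRPL54 and 0.0218 for MRPL48).

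The highest fold changes belonged to MRPL15 and MRPL17, chosen after their values were seen. MRPL15, whose bacterial counterpart helps to build the large subunit, had 55.4, 53.8 and 56.0 FPKM in 5aza libraries, against 51.3, 52.4 and 54.6 FPKM in control libraries. The groups overlapped by 1 library each (log2 fold change 0.06, SE 0.036, adjusted p = 0.260); with the expression trend removed, MRPL15 was the 1 gene of the 71 called higher (log2 fold change 0.12, adjusted p = 0.0480). MRPL17 had 33.3, 39.0 and 32.5 FPKM in 5aza libraries, against 35.5, 32.4 and 32.6 FPKM in control libraries, so that 5aza replicate 2 alone set its mean higher (log2 fold change 0.06, adjusted p = 0.616). The widest spread was that of MRPL52, also chosen after its values were seen. It had 107, 65.8 and 79.0 FPKM in 5aza libraries, against 74.5, 74.6 and 106 FPKM in control libraries, with 1 high library in each group (log2 fold change -0.03, SE 0.19).

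Falls were more frequent among abundant genes, inside and outside the mitochondrial ribosome. Among genes with a control mean of 100 FPKM or more, 10 of 15 mitochondrial ribosomal protein genes fell (66.7%), and so did 390 of 941 other genes (41.4%). Between 50 and 100 FPKM these were 14 of 35 (40.0%) and 334 of 1048 (31.9%), and between 20 and 50 FPKM 3 of 16 (18.8%) and 470 of 2444 (19.2%). Between 5 and 20 FPKM 1 of 5 fell, which was MRPS31, and 347 of 4278 other genes (8.11%). Between 50 and 100 FPKM the order of the shares depends on the setting: it was 11.4% of mitochondrial ribosomal protein genes against 14.4% of other genes with the expression trend removed, 11.4% against 17.7% without the variance trend, and 14.3% against 20.2% without 5aza replicate 3, and without control replicate 1 it was 7 of 35 against 212 of 1048. At 100 FPKM or more the share stayed above that of the other genes under all 18 settings, between 26.7% against 12.1% with the expression trend removed and 73.3% against 47.8% with centring on library medians. Between 20 and 50 FPKM it was mostly below. There 0 of 16 fell with rescaling, against 9.53% of other genes, and 0 of 16 with the expression trend removed, against 12.5%. It was above only with no filter on low values (3 of 16 against 18.3%), with the replicate block (5 of 16 against 19.2%) and without 5aza replicate 1 (5 of 16 against 14.7%). The median log2 fold change was -0.16 at 100 FPKM or more, -0.11 between 50 and 100 FPKM and -0.09 between 20 and 50 FPKM, against -0.11, -0.08 and -0.04 for the other genes. The distance of the 2 medians was therefore smaller within a range of abundance than over all genes, at -0.05, -0.03 and -0.05 on the log2 scale. Over the 18 settings it lay between -0.07 and -0.03, between -0.07 and -0.02, and between -0.05 and -0.04 in these 3 ranges. The ranges from 5 to 50 FPKM and from 100 FPKM hold under 20 of the genes each, and the division on control means can favour falls: on the mean of all 6 libraries, 8 of 13 genes at 100 FPKM or more fell, and 15 of 36 between 50 and 100 FPKM.

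**Figure D4:**
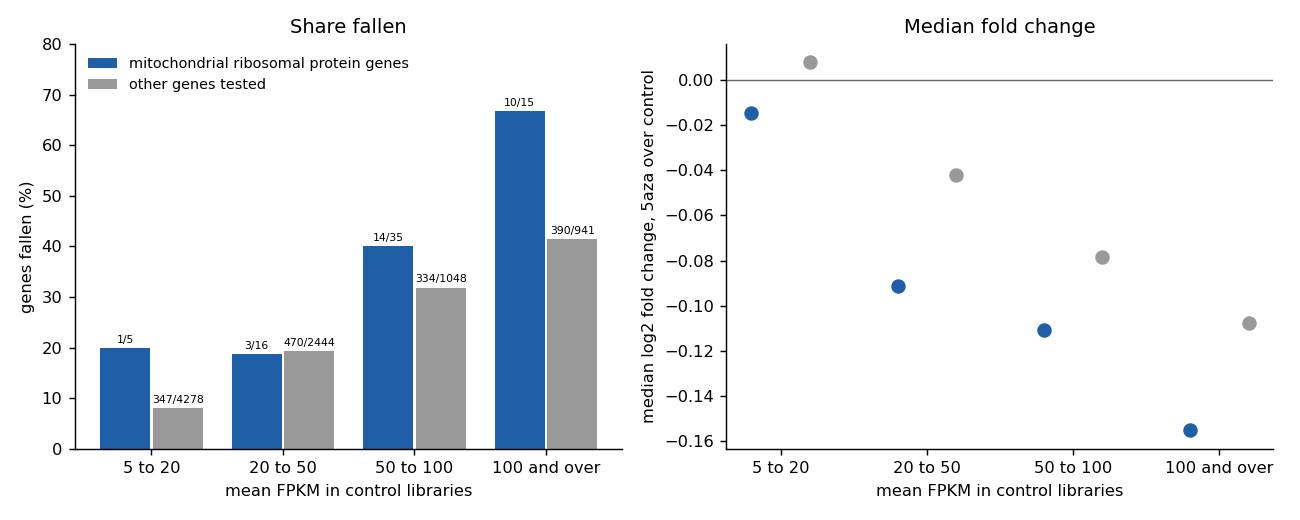
Left, percent of genes that fell, by mean FPKM in control libraries, for mitochondrial ribosomal protein genes (blue) and all other genes tested (grey), with counts over the bars; right, the median log2 fold change (5aza over control) of the same genes. From 20 FPKM upward both kinds of gene fell more often at higher abundance (18.8%, 40.0% and 66.7% against 19.2%, 31.9% and 41.4%), and the blue median lies below the grey one in each of the 4 ranges.

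Other nuclear genes of mitochondria were taken from lists by role. Of 5 further ribosomal proteins with other names, 2 fell (40%) and 0 rose. Their median control level was 74.0 FPKM, and of genes outside the 71 between 50 and 100 FPKM 31.9% fell. CHCHD1, of the small subunit, had means of 33.3 ± 2.55 FPKM after 5aza and 39.5 ± 1.33 FPKM in control libraries (SD, n = 3 each; log2 fold change -0.25, adjusted p = 0.0215). GADD45GIP1, of the large subunit, had 71.2 ± 0.840 FPKM after 5aza and 81.7 ± 4.08 FPKM in control libraries (log2 fold change -0.20, adjusted p = 0.0123). DAP3, a GTP-binding protein of the small subunit named here after its values were known, had means of 76.1 FPKM after 5aza and 74.0 FPKM in control libraries (log2 fold change 0.04), and with AURKAIP1 and PTCD3 did not pass. CHCHD1 was no longer called when control replicate 1 (adjusted p = 0.0693) or control replicate 2 (adjusted p = 0.0612) was left out. It was also lost with rescaling, quantile normalization, the expression trend removed and no variance trend (limma, adjusted p between 0.0510 and 0.0667). GADD45GIP1 held without any 1 library but was lost with rescaling and with the expression trend removed (limma, adjusted p = 0.0509 and 0.0732).

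The genes of proteins that serve the ribosome moved less, and they were also less abundant. Median control levels were 22.7 FPKM for translation factors and 23.5 FPKM for assembly genes, against 63.8 FPKM for the 71 genes. Of genes outside the 71 between 20 and 50 FPKM, 19.2% fell, with a median of -0.04. The part of abundance in the difference was not tested. Of 15 translation factors of mitochondria, 2 rose, 1 fell (6.67%) and 12 did not pass, with a median log2 fold change of 0.02. The median was -0.01 without 5aza replicate 1 or control replicate 3, and 5 rose and 0 fell with rescaling. GFM1, an elongation factor that moves the ribosome along, rose by 0.16 on the log2 scale (adjusted p = 0.0330), and TUFM, which brings tRNA to the ribosome, fell by 0.14 (adjusted p = 0.0179). The GFM1 call did not survive the omission of any single library (adjusted p from 0.0523 to 0.101), and that of TUFM was lost without 5aza replicate 3 (adjusted p = 0.0646) or control replicate 2 (adjusted p = 0.0562). TUFM was also lost with rescaling, quantile normalization and the expression trend removed (limma, adjusted p = 0.127, 0.283 and 0.535).

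Of 33 genes of ribosome assembly and ribosomal RNA maturation, 6 fell, 0 rose and 27 did not pass, with a median of -0.04 that turned to 0.04 with rescaling. The falls numbered 3 without any 1 of the 5aza libraries, 2 without control replicate 1 and 4 without control replicate 2. The largest falls were of MTERF3, at 24.1 ± 1.29 FPKM after 5aza and 28.4 ± 1.16 FPKM in control libraries (log2 fold change -0.24), METTL17 (log2 fold change -0.22) and METTL15, a methyltransferase of the small subunit RNA (log2 fold change -0.21). Each of these calls was lost without at least 1 library, MTERF3 without 5aza replicate 3 (adjusted p = 0.0514), METTL17 without 5aza replicate 1 or 2 or control replicate 1 or 3 (adjusted p between 0.0798 and 0.0997), and METTL15 without the same 4 libraries (adjusted p between 0.0520 and 0.0658). MTERF3, METTL17 and METTL15 were all lost with rescaling (limma, adjusted p between 0.0915 and 0.171).

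Of 18 genes that transcribe, process or copy mitochondrial DNA, 4 fell (22.2%), 0 rose and 14 did not pass, with a median of -0.07. Their median control level was 25.5 FPKM. Among genes other than MRPL and MRPS genes between 20 and 50 FPKM, 19.2% fell, a share close to theirs. Without control replicate 2 the falls in this list numbered 2, and with rescaling 0, with a median of 0.0054. TFAM, which packages mitochondrial DNA and starts its transcription, had 32.0 ± 3.07 FPKM after 5aza and 38.9 ± 1.24 FPKM in control libraries (log2 fold change -0.29, adjusted p = 0.0220). TOP1MT, a topoisomerase, and SSBP1, the single-strand binding protein, fell by 0.17 each. The SSBP1 call held without any 1 library. It was lost with rescaling, quantile normalization and the expression trend removed (limma, adjusted p = 0.0812, 0.0583 and 0.209). Of 13 regulators of mitochondrial gene expression, 2 fell (15.4%) and 0 rose, where 13.1% of all genes tested fell. Their median control level was 15.4 FPKM. Among genes other than MRPL and MRPS genes between 5 and 20 FPKM, 8.11% fell. With 2 falls, the share of this list was not told apart from these. NRF1 had 10.3 ± 0.435 FPKM after 5aza and 12.2 ± 0.519 FPKM in control libraries (log2 fold change -0.25, adjusted p = 0.0194), and PPRC1, a coactivator, fell by 0.15. The TFAM call was lost without control replicate 1 or 2 (adjusted p = 0.0698 and 0.0564), those of NRF1 and TOP1MT without 5aza replicate 3 (0.0630 and 0.0502) or control replicate 2 (0.0675 and 0.0512), and that of PPRC1 without 5aza replicate 1 or 2 or control replicate 1 or 2 (between 0.0642 and 0.0882). NRF1 and PPRC1 were also lost with rescaling (limma, adjusted p = 0.0621 and 0.280).

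Of 22 genes of protein import and quality control, 7 fell (31.8%), 0 rose and 15 did not pass, with a median of -0.10. Their median control level was 74.6 FPKM. Among genes other than MRPL and MRPS genes between 50 and 100 FPKM, 31.9% fell, a share close to theirs. The falls in this list numbered 3 without 5aza replicate 1, 5aza replicate 2 or control replicate 1. They numbered 2 without 5aza replicate 3 or control replicate 2. TOMM7 and TOMM6, small subunits of the outer membrane channel, fell by 0.27 and 0.24 on the log2 scale, and MIPEP, a peptidase that trims imported proteins, fell by 0.25. The TOMM6 call held without any 1 library but was lost with the expression trend removed (limma, adjusted p = 0.0977). TOMM7 was lost without 5aza replicate 2 or 3 (adjusted p = 0.0698 and 0.0724), and MIPEP without 5aza replicate 1 or 3 or control replicate 2 (between 0.0663 and 0.0870). TOMM7 was also lost with rescaling, the expression trend removed and no variance trend, and MIPEP with rescaling and no variance trend (limma, adjusted p between 0.0529 and 0.0974).

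The respiratory chain and the cytosolic ribosome lay about as far below 0 as the mitochondrial ribosome. Of 67 nuclear genes of the respiratory chain and ATP synthase, 26 fell (38.8%), 0 rose and 41 did not pass, with a median of -0.13. Their median control level was 146 FPKM, and of the other genes at 100 FPKM or more 41.4% fell, a share close to theirs. The falls numbered 14, 16, 14 and 13 without 5aza replicate 2, 5aza replicate 3, control replicate 1 and control replicate 2. They numbered 6 with the expression trend removed, beside 1 rise, 13 with rescaling, beside 2 rises, and 11 with quantile normalization, beside 3 rises. NDUFB1, NDUFB6 and NDUFA2, all of complex I, fell by 0.39, 0.34 and 0.32 on the log2 scale, and these calls held under all alternatives. Of 78 tested genes of cytosolic ribosomal proteins, 31 fell (39.7%), 0 rose and 47 did not pass, with a median of -0.13. These falls numbered 13 without 5aza replicate 2, 12 without 5aza replicate 3, 20 without control replicate 1 or 2 and 48 without control replicate 3. With the expression trend removed 4 fell and 3 rose, and with quantile normalization 16 fell and 5 rose, with a median of 0. RPS29, RPS26 and RPS25 fell by 0.33, 0.31 and 0.31. The cytosolic genes are far more abundant, with a median control level of 1718 FPKM, and many have processed pseudogenes, between which reads may have been split. With the expression trend removed, the medians were -0.06 for the mitochondrial ribosome, -0.04 for the respiratory chain and 0.01 for the cytosolic ribosome. The RPS29 call was lost without 5aza replicate 2 or 3 or control replicate 2 (adjusted p = 0.0641, 0.0667 and 0.0534). It was also lost with the expression trend removed and without the variance trend (limma, adjusted p = 0.128 and 0.0519).

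**Figure D5:**
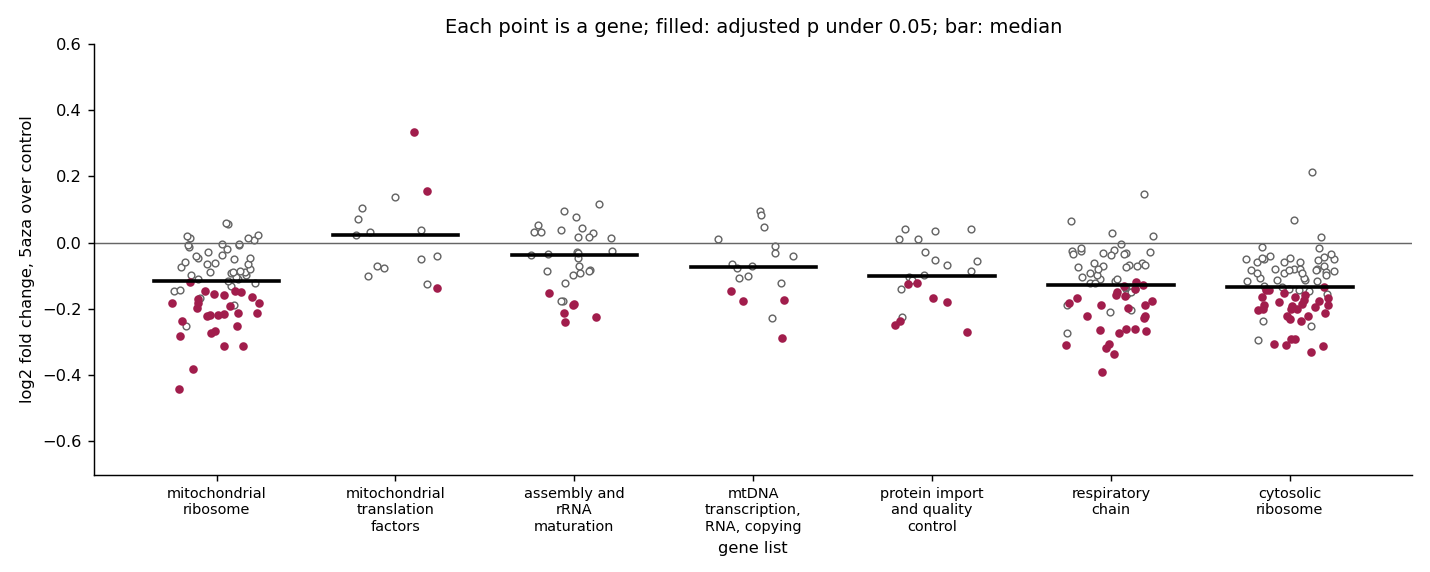
Log2 fold change (5aza over control) of each tested gene of 7 lists, with filled points at an adjusted p under 0.05 and a bar at each list's median. The medians of the mitochondrial ribosome (-0.11), respiratory chain (-0.13) and cytosolic ribosome (-0.13) lie lowest, and that of the translation factors (0.02) lies above 0.

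In the promoter windows shown above, the ETS motif was found within 250 bases before the start in 20 of 63 genes (31.7%), against 16.0% of 9419 genes tested and 8.82% of 27305 genes with a window. It was found in 11 of 24 genes that fell and in 9 of 39 that were not called, and with the 50 bases after the start included, in 12 of 24 and 14 of 39. The YY1 motif was found between 250 bases before and 50 bases after the start in 22 of 63 genes (34.9%), against 7.61% of genes tested and 6.06% of all genes with a window. It occurred in 7 of 24 genes that fell and in 15 of 39 that were not called, and within the bases before the start in 0 of 24 and 7 of 39. Of its 23 occurrences 15 lay after the start, and 19 were on the gene's strand. The NRF1 motif was found before the start in 11 of 63 genes (17.5%), against 11.3% of genes tested and 7.05% of all genes with a window, and it was found in 2 of 24 genes that fell and in 9 of 39 that were not called. In MRPL24 and MRPL37, which fell under all settings, none of the 3 motifs was found, which says only that these letters are not in this window. The promoters had a median of 19 CpG dinucleotides in the 250 bases before the start, with 19 in genes that fell and 20 in genes not called, against 21 in genes tested and 11 in all genes with a window. These counts describe the sequence and were not tested.

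Some of the 71 genes start beside a neighbour that is read in the other direction. A protein-coding neighbour with a start within 1000 bases was found for 17 genes. Of 13 such neighbours outside the 71 that were tested, 6 fell and 0 rose, where 13.1% of all genes tested fell. TCP1 and PSMA2, of these 6, had control means of 290 and 183 FPKM, and at 100 FPKM or more 41.4% of genes outside the 71 fell. NDUFS6 had 66.0 FPKM, in a range where 31.9% fell, and SKA3 20.8 FPKM, where 19.2% fell. EME1 and MTBP had 12.5 and 10.5 FPKM, where 8.11% fell. The part of abundance in this count was not tested. Both genes of the pair fell in 3 cases. MRPL13 was paired with MTBP, at 7.97 ± 0.255 FPKM after 5aza and 10.5 ± 0.710 FPKM in control libraries (log2 fold change -0.40, adjusted p = 0.00503). MRPL27 was paired with EME1, a repair nuclease subunit, at 9.41 ± 0.156 FPKM after 5aza and 12.5 ± 0.852 FPKM in control libraries (log2 fold change -0.41, adjusted p = 0.00348). MRPL18 was paired with TCP1, a chaperonin subunit, at 268 ± 7.25 FPKM after 5aza and 290 ± 5.98 FPKM in control libraries (log2 fold change -0.11, adjusted p = 0.0401). In 2 cases the ribosomal gene fell and its neighbour did not pass: EME2 beside MRPS34 had 3.65 ± 0.503 FPKM after 5aza and 3.56 ± 0.302 FPKM in control libraries, and HELQ beside MRPS18C had 3.22 ± 0.140 FPKM after 5aza and 3.11 ± 0.0738 FPKM in control libraries. In 3 cases the neighbour alone fell. SKA3, a subunit of a spindle attachment complex, lies beside MRPL57 and had 17.4 ± 0.486 FPKM after 5aza and 20.8 ± 0.0596 FPKM in control libraries (log2 fold change -0.26, adjusted p = 0.00416). NDUFS6 of complex I, beside MRPL36, fell by 0.16 on the log2 scale (adjusted p = 0.0288), and PSMA2 of the proteasome, beside MRPL32, by 0.18 (adjusted p = 0.0413). The NDUFS6 call was lost without 5aza replicate 1 or 2 or control replicate 1 or 2 (adjusted p between 0.0696 and 0.0921), and that of PSMA2 without any library other than control replicate 3 (between 0.0748 and 0.126). NDUFS6 was also lost with rescaling, quantile normalization, the expression trend removed and no variance trend (limma, adjusted p between 0.0754 and 0.180). MRPL46 and MRPS11, chosen after their values were seen, start 34 bases apart, and neither passed; their log2 fold changes were -0.04 and -0.01. The TCP1 call was lost without 5aza replicate 1, 2 or 3 or control replicate 1 or 2 (adjusted p between 0.0535 and 0.125), and its log2 fold change was 0.01 with quantile normalization.

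Shared sequence limits how exactly reads can be assigned to some of these genes. A pseudogene named after the gene exists for 32 of the 71, of which 13 fell. Exons of 34 genes overlap those of another gene on either strand; these include 15 of the 28 that fell, and the other 13 overlap none. Of the 12 largest falls, those of MRPL24, MRPS34 and MRPS26 have neither a named pseudogene nor an overlapping exon.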

How the data were processed

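RNA-seq of 6 HCT116 libraries, 3 from 5aza-treated and 3 from control cells, was analysed from 1 table. The values are FPKM per gene as deposited by the authors, per the file headers. STAR 2.5.1b, HTSeq 0.6.0 and DESeq2 1.10.1 appear in the submitters' processing notes without their roles, and the builds GRCh38 and Rnor_6.0, a rat assembly, are both listed there; the table's Ensembl identifiers are those of human genes, and which build the values rest on is not stated. Which program computed FPKM, and whether strand was used, is not given in the sources. Among its 16726 rows, 11 identifiers occur more than once, none of them a gene described here, and the copy of higher mean was used. Symbols were found for 15421 of 15451 Ensembl identifiers, and coordinates are from GENCODE release 29 on GRCh38.

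Values were used as log2(FPKM + 0.1), which understates changes of low genes. The test, two-sided, was limma's (version 3.58.1, R 4.3.3; lmFit, eBayes with a variance trend), run on the 12360 genes that reached 0.5 FPKM in 3 or more of 6 libraries and checked on simulated data. All p-values were adjusted over all of them with the Benjamini-Hochberg method. A gene rose or fell where its adjusted p was under 0.05. SE refers to the log2 fold change and SD to 3 libraries. Lists, subunits, ranges of abundance and motifs are described by counts and medians, with no test. Depth is unknown, so no interval for counting error is given. All 17 alternatives listed for the fit were run. Named genes are the 12 largest falls that passed, the 3 highest and 3 lowest means, MRPS18A, MRPS18B, MRPS18C, MRPS30, MRPL58 and MRPL41, and up to 3 rising and 3 falling genes of each list; others are said to be chosen later. One of the genes this rule names is not reported here. The genes, lists and tests were chosen with earlier results of these data known.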

Additional observations from a re-analysis of the deposited data

How the results depend on the processing

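Over the 17 alternatives the median of the 71 genes kept its sign, and no other pseudocount or filter on low values changed the 28 falls. Falls numbered 14 (large subunit 6), 17 (large 8), 9 (large 4, small 5) and 11 (large 7, small 4) with rescaling to equal sums, quantile normalization, the expression trend removed and no variance trend; the trend removed also gave 1 rise, in the large subunit. The median was -0.035, -0.058 and -0.056 with rescaling, quantile normalization and the trend removed, and that of small subunit genes -0.027 with rescaling and -0.068 with the trend removed. Of all genes tested, 2239 rose and 779 fell with rescaling, and 988 and 1041 fell with the trend removed and with no variance trend. Leaving out 1 library gave 13 to 27 falls (large 8 to 17, small 5 to 11), and 940 to 1521 falls of all genes. With the replicate number as a block, 33 of the 71 genes fell, 27 of them shared with the 28, and of all genes 1259 rose and 1673 fell. Same-numbered samples correlated at 0.05, 0.08 and 0.07 in their deviations from the group means, too little to treat the numbers as pairs, although each sample correlated best with its own number, as a hint from the data.

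Some genes with small fold changes changed sign, and of those named in the text TCP1 alone had passed the test. With rescaling, log2 fold changes were 0.077 for MRPS14, 0.065 for MRPL50, 0.016 for MRPS30, 0.053 for MRPL52, 0.073 for MRPS11, 0.040 for MRPL46 and 0.076 for MRPS12. With quantile normalization they were 0.0025 for MRPS30, 0.048 for MRPL52, 0.076 for MRPS12, 0.011 for TCP1, -0.069 for EME2 and -0.056 for HELQ. With the trend removed they were 1.89e-04 for MRPS30, 0.051 for MRPL52, 4.00e-04 for MRPS11, 0.077 for MRPS12, 8.81e-04 for TCP1, -0.028 for EME2 and -0.017 for HELQ. Leaving out 1 library gave -0.046 to 0.027 for MRPS14, -0.048 to 0.026 for MRPL50, -0.024 to 0.11 for MRPL17, -0.22 to 0.14 for MRPL52, -0.11 to 0.062 for MRPS11, -0.077 to 0.015 for MRPL46, -0.025 to 0.055 for MRPL14, -0.049 to 0.048 for MRPS12 and -0.037 to 0.14 for EME2. Over all named genes and alternatives, 1103 values kept their side of the threshold and direction, 226 lost the call, 8 gained it and 40 changed sign. The cause of these changes was not tested. Depth is unknown, so small differences can be read only against the spread of 3 libraries.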
